A study of Mus musculus with 25 samples.

Results

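The genes described here are 10 zinc transporters: 7 importers of the Slc39a (ZIP) family and 3 exporters of the Slc30a (ZnT) family, read by gene symbol from the expression tables of mouse embryos. They are 10 of the 24257 gene symbols in those tables, and 10 of the 24 Slc39a and Slc30a genes listed there. The members were chosen by their FPKM levels in these same libraries, so their levels and fold changes are given as a description, and no test of them is used as support. The libraries were 11 of the 25 samples of the series, all RNA of BDF1 mice. At the 2-cell stage (embryonic day 1.5) there were 2 libraries each of embryos labelled WT, sIVF and IVF, the last after in vitro fertilisation. The labels do not spell out sIVF. At the blastocyst stage (embryonic day 4.0) there were 3 libraries labelled Fzr1-OE, for overexpression of the cell cycle regulator Fzr1, and 2 labelled Control. How Fzr1 was overexpressed, and whether replicates were separate pools of embryos, is not stated in the labels, so the spread between libraries may be technical. RNA of whole embryos was measured, so fewer cells of a type and less RNA per cell cannot be told apart.

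Zinc cannot cross membranes unaided. ZIP proteins bring it into the cytosol, from outside the cell or from organelles, and ZnT proteins move it out of the cytosol, to the outside or into secretory vesicles. Metallothioneins bind the free ion, and the zinc-sensing factor Mtf1 switches on genes through metal response elements. Mouse oocytes are known to take up zinc as they mature and to release it in sparks when activated at fertilisation, and the preimplantation embryo depends on zinc supply.

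The short core of a metal response element was searched in the RefSeq promoter windows (build GRCm38.p6, 250 bases before to 50 after a start site) on both strands, as TGCACNC or TGCGCNC. Windows were found for 8 of the 10 members, 10 windows in all, and none was given for Slc39a4 or Slc39a6. A core stood in 3 of the 10 member windows, those of Slc30a1, Slc30a5 and 1 of Slc39a8, close to the 25.7% of all 32841 promoter windows. Slc30a1 held 2 cores, a count of 2 or more that 7.12% of all windows reach, while the metallothionein gene Mt1 held 3 and Mt2 held 4. The windows below are shown because Slc30a1 is a textbook target of Mtf1 and Slc30a5 is the exporter of highest mean in WT. Each has the core in capitals and is read on the strand opposite to the gene, and a match is a description of letters, not a site of binding.
Slc30a1, chr1:191906728-191906754, core 43 bases upstream of the start site: aactttgcttTGCACTCggaacccccg
Slc30a1, chr1:191906801-191906827, core 30 bases downstream: ccgcggcgacTGCGCTCggcccggagg
Slc30a5, chr13:100833459-100833485, core 48 bases upstream: atcctgcgccTGCGCGCtggtggacac

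No core was found in the windows of Slc39a1 or Slc39a2, the members with the largest fitted differences between blastocyst groups. Their upstream sequences are shown because they differ in CpG content, with each CpG in capitals. The 250 bases upstream of Slc39a1 hold 17 CpG and 66.4% G and C, and 76.5% of promoters hold fewer CpG. Those of Slc39a2 hold 3 CpG and 48.8% G and C, and 29.0% of promoters hold fewer, against a median of 6.
Slc39a1, chr3:90247942-90248191, plus strand, GRCm38.p6: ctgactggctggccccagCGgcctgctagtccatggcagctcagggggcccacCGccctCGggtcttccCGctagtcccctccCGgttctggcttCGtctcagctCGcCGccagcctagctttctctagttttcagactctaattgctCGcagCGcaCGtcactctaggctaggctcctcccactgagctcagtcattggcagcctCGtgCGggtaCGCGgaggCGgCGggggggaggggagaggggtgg
Slc39a2, chr14:51893360-51893609, plus strand, GRCm38.p6: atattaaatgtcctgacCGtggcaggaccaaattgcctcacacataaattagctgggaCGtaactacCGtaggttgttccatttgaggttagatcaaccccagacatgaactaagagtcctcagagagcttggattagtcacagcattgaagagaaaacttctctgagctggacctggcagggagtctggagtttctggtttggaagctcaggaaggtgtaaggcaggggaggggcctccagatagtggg
Counted over whole windows of 300 bases, Slc39a10 held 47 CpG (more than 98.6% of promoters) or 1 CpG (more than 5.42%), by start site. Slc39a7 (42 CpG) and Slc30a1 (36 CpG) held more than 97.0% and 93.8% of promoters. Slc39a1 held 23 and Slc39a2 held 5.

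Levels are in FPKM, fragments per unit of transcript length and of sequencing depth, a scale that allows comparison between genes. From the confidence bounds in the files, depth came to between 4742698 and 6377606 fragments at the 2-cell stage and between 9324167 and 10483442 at the blastocyst stage. Fzr1 itself did not separate the blastocyst groups: it stood at 12.7, 15.5 and 17.1 FPKM in the libraries labelled Fzr1-OE and at 16.5 in both Control libraries (log2 fold change -0.13, SE 0.16, limma adjusted p = 0.713). Directions given for this comparison therefore rest on the labels. Markers of trophectoderm, the outer layer that forms the placenta, all passed the filter on low values in blastocysts (10 of 10), and epiblast and primitive endoderm markers were present. Cumulus and granulosa cell markers summed to at most 3.92 FPKM in any library.

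Slc39a1 (chr3:90052114-90057534 in mm9, the build of the files), an importer of the cell surface, had the highest FPKM of all 10 members in every 2-cell library. It measured 107.1 and 123.0 FPKM in WT, 89.9 and 109.6 in sIVF and 79.6 and 68.95 in IVF. In blastocysts it measured 18.9 and 46.5 FPKM in Control and 12.6, 11.1 and 9.78 in the libraries labelled Fzr1-OE. WT and sIVF overlapped, and each other step of the order WT, sIVF, IVF, Control, Fzr1-OE was apart. The WT mean (115 ± 11.2 FPKM, SD, n = 2) was 1.55 times the IVF mean and 3.52 times the Control mean (32.7 ± 19.5, SD, n = 2), which in turn was 2.93 times the Fzr1-OE mean (11.2 ± 1.40, SD, n = 3). The 2 Control libraries differed by 2.46 times, with 686 and 1734 implied fragments.

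Slc39a2 (chr14:52513285-52516420), another surface importer, was a blastocyst gene in these tables. It was listed at 0 in 4 of the 6 2-cell libraries and at 0.0962 and 0.0383 FPKM in the others. Control blastocysts held 19.2 and 13.6 FPKM and Fzr1-OE blastocysts 4.42, 5.44 and 6.31, with no overlap, and the Control mean was 3.04 times the Fzr1-OE mean. These levels rest on 497 to 697 implied fragments in Control and 170 to 255 in Fzr1-OE.

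Slc39a4 (chr15:76442813-76447282), the importer through which the gut takes up dietary zinc, was higher in blastocysts than in 2-cell embryos, unlike Slc39a1. It measured 5.91 and 6.02 FPKM in WT, 4.08 and 7.73 in sIVF and 12.9 and 17.6 in IVF. Control blastocysts held 37.8 and 36.96 FPKM and those labelled Fzr1-OE 27.6, 29.2 and 25.1. Only WT and sIVF overlapped, and the order from the top was Control, Fzr1-OE, IVF, then that pair. The Control mean (37.4 ± 0.610 FPKM, SD, n = 2) was 6.27 times the WT mean (5.96 ± 0.0783, SD, n = 2) and 1.37 times the Fzr1-OE mean (27.3 ± 2.04, SD, n = 3).

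Slc39a6 and Slc39a10 encode related importers that can pair in the plasma membrane, and both were higher at the 2-cell stage. Slc39a6 (chr18:24738382-24762318) measured 7.77 and 6.87 FPKM in WT, 13.5 and 11.6 in sIVF and 12.5 and 8.43 in IVF. In Control blastocysts it stood at 0.793 and 0.571 FPKM, and in those labelled Fzr1-OE at 1.89, 0.958 and 0.567. The WT mean was 10.7 times the Control mean, and the blastocyst groups overlapped. Slc39a10 (chr1:46864389-46910354) measured 17.25 and 9.22 FPKM in WT, 13.4 and 13.6 in sIVF and 14.7 and 15.96 in IVF. It stood at 4.78 and 4.19 FPKM in Control and at 3.07, 2.27 and 4.40 in Fzr1-OE. Both sIVF and IVF overlapped WT in Slc39a10, whose WT mean was 2.95 times that of Control.

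Slc39a7 (chr17:34165211-34168635) releases zinc from the endoplasmic reticulum and was lowest in WT 2-cell embryos. WT libraries held 1.005 and 0.0359 FPKM, against 5.46 and 6.17 in sIVF and 5.17 and 6.18 in IVF. The sIVF and IVF means were 11.2 and 10.9 times the WT mean and overlapped each other. These ratios rest on the WT levels, with 22 implied fragments in 1 library and 0 in the other. On the log2(FPKM + 1) scale IVF differed from WT by 1.73 with WT 1 alone and by 2.68 with WT 2 alone. Blastocysts held 10.1 and 13.7 FPKM in Control and 12.25, 11.02 and 13.3 in Fzr1-OE, which also overlapped. Slc39a8 (chr3:135488243-135551536), a carrier of zinc, manganese and cadmium, was listed at 0 in all 6 2-cell libraries and in 3 of the 5 blastocyst libraries. The exceptions were Control 1 at 0.126 FPKM and Fzr1-OE 3 at 0.160, resting on 5 and 8 implied fragments.

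**Figure D1:**
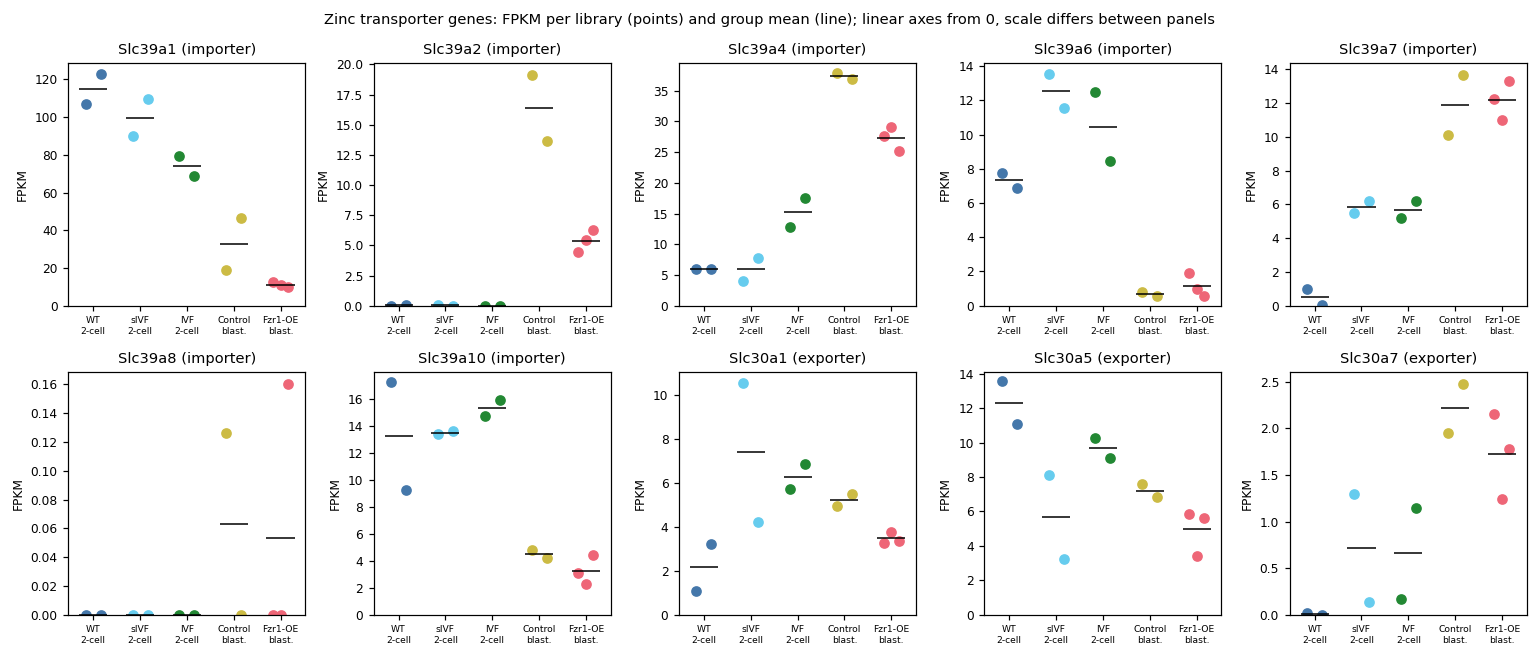
FPKM of each zinc transporter gene by group, with a point per library and a line at the group mean; axes are linear, start at 0 and differ in scale. Slc39a1 goes from 107 to 123 FPKM in WT down to 9.78 to 12.6 in blastocysts labelled Fzr1-OE, while Slc39a2 is near 0 at the 2-cell stage and highest in Control blastocysts.

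Among the exporters, Slc30a1 (chr1:193730660-193737126), which removes zinc across the plasma membrane, was lowest in WT 2-cell embryos. It measured 1.08 and 3.24 FPKM there, 10.55 and 4.20 in sIVF and 5.69 and 6.86 in IVF. Control blastocysts held 4.93 and 5.48 FPKM and Fzr1-OE blastocysts 3.27, 3.77 and 3.36. The sIVF and IVF means were 3.42 and 2.91 times the WT mean without overlap, but the WT libraries themselves lay far apart. The Control mean was 1.50 times the Fzr1-OE mean, again without overlap. Its start and end in the files overlap another listed locus, 1700034H15Rik, of low level.

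Slc30a5 (chr13:101572603-101603382), which loads zinc into the early secretory pathway, had its highest level in WT. It measured 13.6 and 11.1 FPKM in WT, 8.09 and 3.24 in sIVF and 10.2 and 9.12 in IVF. Control held 7.58 and 6.835 FPKM and Fzr1-OE 5.88, 3.39 and 5.63. WT was apart from sIVF and from IVF, and the WT mean was 2.17 times the sIVF mean. Slc30a7 (chr3:115641891-115710324), a Golgi transporter, was at or near 0 in WT (0.0177 and 0 FPKM). In the other 2-cell embryos its replicates did not resemble each other, at 1.30 and 0.142 FPKM in sIVF and 0.172 and 1.15 in IVF. It stood at 1.95 and 2.48 FPKM in Control and 2.16, 1.24 and 1.78 in Fzr1-OE, which overlapped.

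Summed over the 7 importers, 2-cell libraries held 117 to 149 FPKM, Control blastocysts 91.7 and 116 and those labelled Fzr1-OE 59.6 to 61.8. Which importer made up the sum differed between stages. Slc39a1 gave 58.9% to 84.7% of it in 2-cell libraries, 20.6% and 40.3% in Control and 16.4% to 20.4% in Fzr1-OE. Slc39a4 gave 3.23% to 15.0% of it in 2-cell libraries, 41.2% and 32.0% in Control and 42.1% to 48.6% in Fzr1-OE. The top importer by FPKM was Slc39a1 in the 6 2-cell libraries and Control 2, and Slc39a4 in Control 1 and the 3 libraries labelled Fzr1-OE. With Slc39a1 left out, the sum ran the other way over stages: 22.2 to 31.9 FPKM in WT, 36.5 to 39.1 in sIVF, 45.2 to 48.2 in IVF and 69.0 to 72.8 in Control. It was 48.85 to 49.85 FPKM in Fzr1-OE, below Control, in a sum of members that were chosen with these levels known. The sum of the 3 member exporters was smaller, at 14.3 to 14.7 FPKM in WT, 7.58 to 19.95 in sIVF, 16.1 to 17.1 in IVF, 14.5 to 14.8 in Control and 8.40 to 11.3 in Fzr1-OE. These sums cover the members only. The 7 other Slc30a genes summed to 37.4 to 46.1 FPKM in Control and 36.3 to 45.9 in Fzr1-OE, with overlap. The 7 other Slc39a genes summed to 18.05 to 18.96 FPKM in Control and 13.39 to 14.58 in Fzr1-OE, without overlap.

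**Figure D2:**
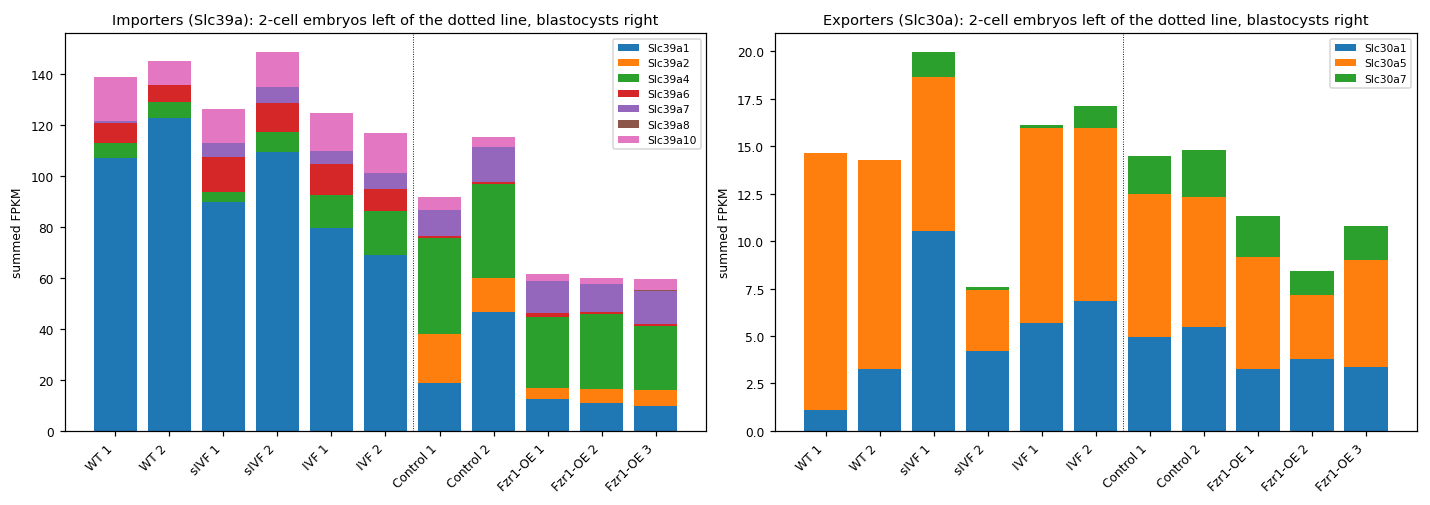
Summed FPKM of the 7 importers (left) and the 3 exporters (right) in each library, stacked by gene on axes that start at 0. Slc39a1 fills most of the importer bar in 2-cell embryos, and Slc39a4 and Slc39a2 take up more of it in blastocysts, where the libraries labelled Fzr1-OE have the lowest sums.

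Stage was compared between Control blastocysts and WT 2-cell embryos, without a test, since the libraries of the stages differ in depth. On the log2(FPKM + 1) scale the median locus was 0.88 higher in blastocysts as deposited, 0.38 higher after upper-quartile scaling and 0.02 lower (-0.02) after quantile normalization. Slc39a1 differed by -1.91, -2.55 and -2.77 under these scalings, Slc39a6 by -2.31, -2.70 and -3.10, and Slc39a10 by -1.32, -1.88 and -2.18. These importers and the exporter Slc30a5 (-0.69, -1.28 and -1.50) were the members lower in Control blastocysts than in WT. Slc39a7 was higher by 3.15, 2.74 and 2.15 and Slc39a4 by 2.46, 1.86 and 1.60. Slc30a1 differed by 1.06, 0.57 and 0.24, close to the shift of the median locus, and Slc30a7 by 1.67, 1.43 and 0.58. For Slc30a1 and Slc30a5 the direction depended on the 2-cell group taken. As deposited, mean Slc30a1 was 7.38 FPKM in sIVF and 6.28 in IVF, both above Control (5.20), though sIVF overlapped Control. Mean Slc30a5 was 5.66 FPKM in sIVF, below Control (7.21) with overlap, and 9.68 in IVF, above it. None of the 9 members compared changed sign with the scaling. Slc39a2, the ninth of them, was higher by 4.04, 3.68 and 3.04. The WT means of Slc39a2, Slc30a7 and Slc39a7 were only 0.048, 0.0089 and 0.52 FPKM. The size of their differences therefore depends on the 1 FPKM added before the log.

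The libraries labelled Fzr1-OE and Control were compared with limma on log2(FPKM + 1), over the 9439 loci that averaged 1 FPKM or more. A locus was called at a Benjamini-Hochberg adjusted p under 0.05. Of the 10 members 8 passed the filter, all but Slc39a6 and Slc39a8. Called lower in Fzr1-OE were 2 members, Slc39a2 (log2 fold change -1.44, SE 0.21) and Slc39a1 (-1.34, SE 0.31), and none was called higher. Over all loci 4.21% were called, 1.92% lower and 2.29% higher. As the members were picked with this contrast known, nothing is read from that share. Slc39a4 (-0.44, SE 0.12), Slc30a1 (-0.47, SE 0.21) and Slc30a5 (-0.49, SE 0.24) were not called, although each Control library was above each Fzr1-OE library, as for the called members. Such separation towards lower values was found in 5 of 8 members, beside 18.4% of all loci, and towards higher values in 0, beside 19% of all loci. Slc39a10 (-0.40, SE 0.26) and Slc30a7 (-0.25, SE 0.27) overlapped and were not called, nor was Slc39a7 (0.04, SE 0.18), so fold changes were below 0 in 7 of 8 members and in 49.3% of all loci. The median was -0.46 over the 8 members and 0.005 over all loci.

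The call for Slc39a1 rests on which Control library is used. Its log2 fold change was -1.97 without Control 1, still called, and -0.72 without Control 2, not called. The call was also lost on leaving out any 1 of the Fzr1-OE libraries, where the fold change stayed at -1.43, -1.35 and -1.26 (limma adjusted p = 0.0514, 0.107 and 0.115). Slc39a2 differed by -1.67 without Control 2, still called, and by -1.21 without Control 1, not called. The 2 Control libraries differed in other genes too: of 5863 loci with a blastocyst mean of 5 FPKM or more, 39 were at least 2 times higher (as FPKM + 1) in Control 2 and 25 at least 2 times lower. Pairs of libraries labelled Fzr1-OE gave 32 to 51 loci one way and 12 to 21 the other. Of the 39 loci, 59.0% had a WT 2-cell mean above Control 1, against 22.5% of all 5863. The 39 were picked for being lower in Control 1, which by itself raises this share, so nothing is read from the contrast with all loci. In the Fzr1-OE pairs, whose loci were picked in the same way, the share was 28.6% to 50%. The part of the differences between the Control libraries in the level of Slc39a1 was not tested.

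Some trophectoderm markers were lower in the same comparison. Of 10 measured, 5 were called lower in the libraries labelled Fzr1-OE, beside 1.92% of all loci (Plac1 -1.46, Elf5 -1.14, Eomes -0.74, Krt18 -0.69 and Krt8 -0.61) and none higher, with a median of -0.63 over the list. Not called were Krt7 (-0.64), Gata3 (-0.27), Tead4 (-0.19), Cdx2 (0.06) and Tfap2c (0.25), all overlapping between groups but Gata3. The list summed to 5754 and 5788 FPKM in Control and 3602 to 3673 in Fzr1-OE, most of it Krt18 and Krt8. Without these keratins the sums were 394 and 405 against 264 to 268 FPKM. No epiblast marker of 8 was called, and their sums overlapped between groups (201 and 211 against 195 to 228 FPKM). Of 6 measured primitive endoderm markers, Gata6 was called higher (0.72), while 4 were below 0, beside 49.3% of all loci. Lama1 (-0.71) and Dab2 (-0.09) were lower without overlap (18.4% of all loci), and the list median was -0.11. Of 7 listed 2-cell markers only 2 were measured, Zfp352 (1.95) and Gm8300 (1.12), and both were called higher, beside 2.29% of all loci. Zfp352 was at 0 FPKM in both Control libraries and Gm8300 at 0.979 and 0.666. Both passed the filter on low values only through the libraries labelled Fzr1-OE. The filter thus fixed their direction, and nothing is read from this count. The list summed to 0.666 to 0.979 FPKM in Control and 5.19 to 6.41 in Fzr1-OE. Zscan4c, Zscan4d and Usp17la were at 0 in every blastocyst library. The part of these markers in the differences of Slc39a1, Slc39a2 and Slc39a4 was not tested.

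In 2-cell embryos, 7 of the 10 members passed the filter of the joint fit over 6 libraries and 8245 loci, all but Slc39a2, Slc39a8 and Slc30a7. By limma 0 of these 7 were called in any of the 3 comparisons, which share libraries with each other. IVF against WT called 0.0121% of all loci, and 3 members (Slc39a7, Slc39a4 and Slc39a1) had an unadjusted p under 0.05, beside 12.4% of loci. The fitted differences were 2.21 (SE 0.63) for Slc39a7, 1.29 (SE 0.65) for Slc30a1, 1.21 (SE 0.49) for Slc39a4 and -0.62 (SE 0.23) for Slc39a1. IVF and WT libraries did not overlap in 4 members that were higher in IVF (22.8% of loci) and 2 that were lower (19.3% of loci). Slc39a6 (0.44, SE 0.44) was among the higher and Slc30a5 (-0.31, SE 0.52) among the lower, while Slc39a10 (0.26, SE 0.43) overlapped. Fold changes were below 0 in 2 of 7 members and in 45.1% of loci.

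Between sIVF and WT 0% of loci were called, and 1 member, Slc39a7, had an unadjusted p under 0.05, beside 7.1% of loci. Side by side with the IVF values above, sIVF differed from WT by 2.24 in Slc39a7, 1.39 in Slc30a1, 0.70 in Slc39a6, 0.09 in Slc39a10, -0.06 in Slc39a4, -0.21 in Slc39a1 and -1.09 in Slc30a5. Their standard errors are those given above, since the groups share 1 estimate of the spread. Higher without overlap were 3 members (20.6% of loci) and lower 1 (15.3% of loci). Fold changes were below 0 in 3 of 7 members and in 45.7% of loci. Between sIVF and IVF, 0% of loci were called too, and 1 member had an unadjusted p under 0.05, beside 11.8% of loci. That member was Slc39a4 (-1.27, SE 0.49), whose sIVF libraries overlapped WT. Slc30a5 (-0.78) and Slc39a10 (-0.17) were lower and Slc39a1 (0.42) higher in sIVF than in IVF without overlap, and Slc39a7 differed by 0.03. Without overlap were 1 member higher (21.7% of loci) and 3 lower (21% of loci), and fold changes were below 0 in 3 of 7 members and in 50.9% of loci. Oocyte and maternal markers, which can mark RNA stored from the egg, summed to 98.7 and 118 FPKM in WT, 188 and 214 in sIVF and 139 and 185 in IVF. Markers of the 2-cell embryo summed to 65.6 and 82.5 FPKM in WT, 66.4 and 99.1 in sIVF and 40.3 and 43.2 in IVF. In IVF against WT 4 of 4 measured 2-cell markers were below 0 (45.1% of loci), 3 of them without overlap (19.3% of loci). By limma 0 of them were called at an adjusted or unadjusted p under 0.05. Of the oocyte and maternal markers 7 of 7 measured were above 0, 4 of them without overlap (22.8% of loci). By limma 0 of these 7 were called, and 2, Gdf9 and Mos, had an unadjusted p under 0.05 (12.4% of loci). Mos stood at 0 and 0.0555 FPKM in WT, 0 in sIVF and 2.99 and 5.95 in IVF. It passed the filter only through IVF, so its place in these counts was fixed by the filter. The part of these lists in the differences above was not tested.

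**Figure D3:**
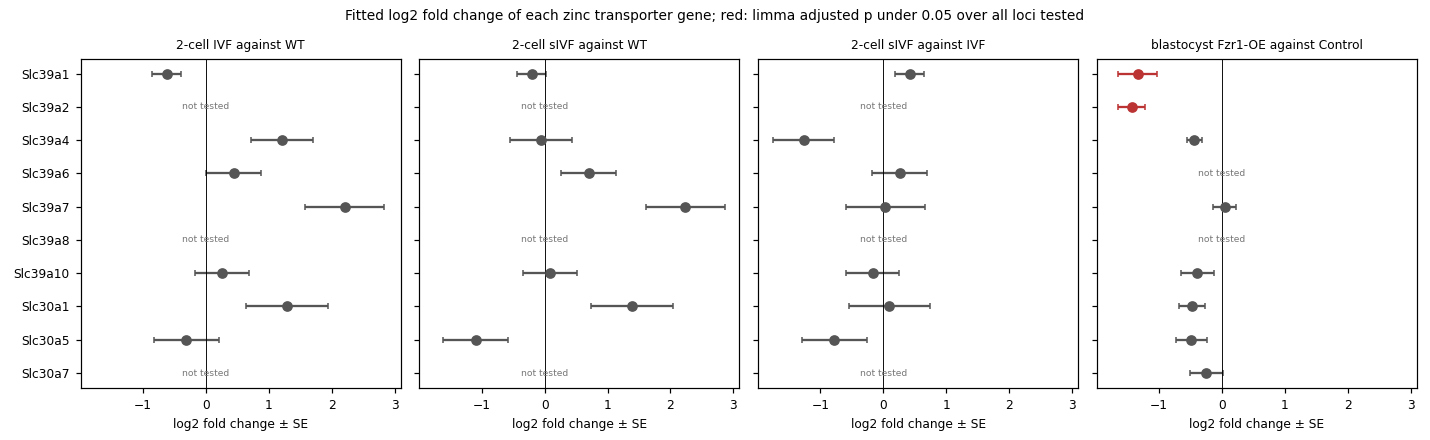
Fitted log2 fold change of each zinc transporter gene, as a point with a bar of 1 SE either side, in the 4 comparisons; red points are called by limma over all loci tested. In blastocysts 7 of 8 points lie below 0 and Slc39a1 and Slc39a2 are red, and in 2-cell embryos Slc39a7 lies near 2.2 in both comparisons against WT.

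The remaining 14 Slc39a and Slc30a genes, metallothioneins and Mtf1, and 14 transporters of other metals were read in the same fits. By limma 0 of 13 measured were called in each 2-cell comparison and 0 of 21 in blastocysts, with 1 (IVF against WT), 0 (sIVF against WT), 1 (sIVF against IVF) and 2 (blastocysts) at an unadjusted p under 0.05. In blastocysts 4 of the 8 members were under that p, beside 19.7% of all loci. The members were picked with this contrast known, so nothing is read from that share or from its difference to these lists. Among the other importers, Slc39a11 stood at 8.07 and 7.28 FPKM in Control and 4.56, 4.19 and 5.12 in Fzr1-OE without overlap (-0.63, SE 0.20, limma adjusted p = 0.118). Slc39a9 was also lower without overlap (-0.29), at 3.002 and 2.78 FPKM against 1.95, 2.33 and 2.25. Of the 5 other importers measured, 2 were lower without overlap (18.4% of all loci) and 4 were below 0 (49.3% of all loci). Slc39a14 (-0.10) and the exporters Slc30a2 (-0.23) and Slc30a6 (-0.05) overlapped between blastocyst groups. Slc30a6, the partner of Slc30a5 in the secretory pathway, had more FPKM in blastocysts (18.8 to 26.45) than any of the 3 exporters described above. Slc30a10, a manganese exporter of the same family, was listed at 0 in all 11 libraries.

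Metallothionein, the cytosolic zinc buffer, was the most abundant zinc gene measured. Mt1 stood at 1361 and 1348 FPKM in WT, 1256 and 1176 in sIVF and 1814 and 1593 in IVF, so IVF was above both other groups without overlap. It was not called in any comparison (limma adjusted p = 0.333 for IVF against WT and 0.184 for sIVF against IVF). In blastocysts Mt1 held 943 and 882 FPKM in Control and 778.5, 995 and 948.5 in Fzr1-OE, and its fold change was -0.02 (SE 0.10). Mt2 differed by -0.03 (SE 0.09), so both metallothioneins overlapped between the groups where Slc39a1 and Slc39a2 did not. Of transporters of other metals, the iron importer Tfrc held 42.8 to 68.9 FPKM in 2-cell embryos and 4.38 to 5.95 in blastocysts. The copper importer Slc31a1 stood at 29.5 to 31.7 FPKM in all 5 blastocyst libraries (-0.003). Of the 8 measured in blastocysts, 4 were higher in the libraries labelled Fzr1-OE without overlap, beside 19% of all loci. These were Slc25a28 (0.79), Slc41a2 (0.54), Trpm7 (0.42) and Atp7a (0.34), none of them called.

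Genes with the most similar levels were taken by Pearson r of log2(FPKM + 1) over the 11 libraries, among 7042 loci. The libraries form 2 stages, so r mostly measures the step between stages and is a description. It also takes in the step between the Control libraries, so a step shared with the genes named is part of what chose them. For Slc39a1 the top 5 were Zscan26 (r = 0.981), Lgr4 (0.975), Gbas (0.974), Cbx3 (0.972) and Ptp4a2 (0.971). Each of these 5 was 2.05 to 4.22 times higher in Control 2 than in Control 1, as Slc39a1 was by 2.46 times. For Slc39a2 they were Elf5 (0.997), Junb (0.996), Vgll1 (0.994), Gng2 (0.991) and Gyltl1b (0.991), among 1600 loci with r above 0.9. Elf5 is a transcription factor of the trophectoderm lineage and one of the markers above. In these 5 the Control libraries were closer, at 0.638 to 1.09 times, and Slc39a2 itself at 0.712. For Slc30a1 the top 5 reached only 0.815 (Ciart), 0.809 (Chaf1a), 0.799 (Zcchc7), 0.797 (Rbm48) and 0.787 (Ado).

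**Figure D4:**
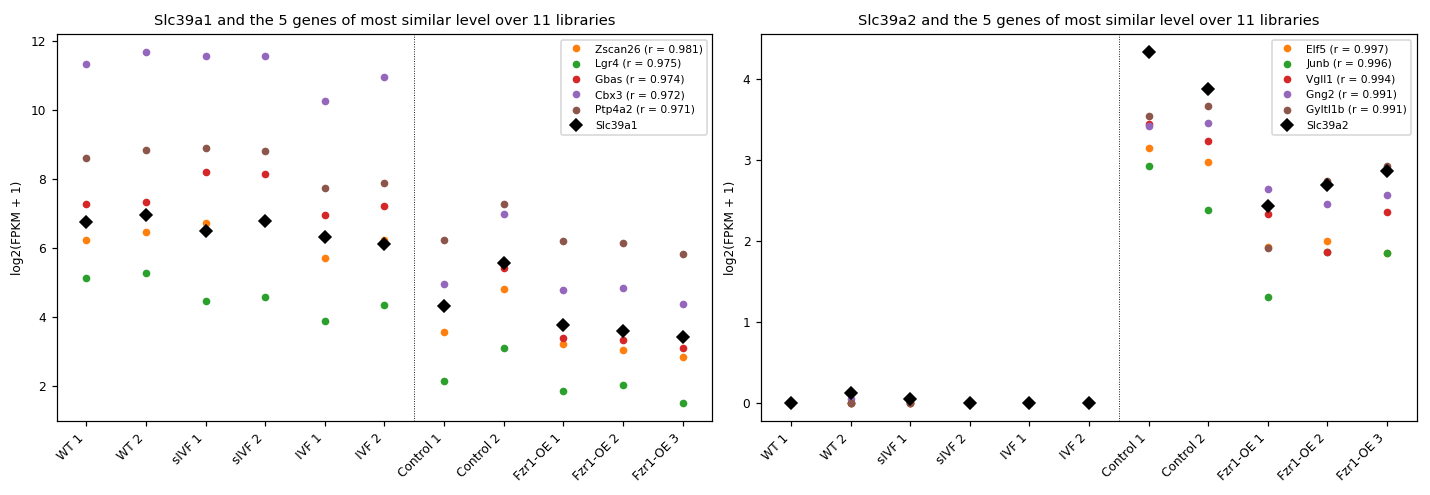
log2(FPKM + 1) of Slc39a1 (left) and Slc39a2 (right) as black diamonds in each library, with the 5 genes of most similar level as coloured points; the dotted line parts 2-cell embryos from blastocysts. Slc39a1 and its 5 genes are all higher in Control 2 than in Control 1, and Slc39a2 and its 5 genes are near 0 before the blastocyst.

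Subcutaneous fat of Fzr1-OE and Control mice, aged 4 months, was covered by ontology enrichment tables, which name the genes selected but no levels. Each group had 3 libraries of fat RNA and only 1 of methylation. The authors' deposited table for fat RNA lists 1605 terms with 449 distinct gene symbols, and none of the 10 members, no metallothionein and no Mtf1 is among them. The only Slc39a or Slc30a gene named there is Slc30a10, in 80 terms. One of these in the authors' deposited table is manganese ion transmembrane transport, with 3 of 8 annotated genes selected where 0.2 was expected (FDR 0.0127). For manganese ion transport the authors' values are 3 of 15 where 0.37 was expected (FDR 0.0548). For response to metal ion they are 21 of 296 where 7.32 was expected (FDR 0.000692). The authors' deposited table for methylation in fat lists 632 terms with 119 symbols and names no Slc39a or Slc30a gene.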

How the data were processed

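RNA tables of 11 embryo libraries were analysed. The authors deposited FPKM values per gene locus with confidence bounds, per the file headers (Cufflinks gene-tracking layout). Build mm9, HISAT2 2.1.0 and Cufflinks 2.2.1 are named, without roles, in the submitters' processing notes. Per the labels' protocols, cDNA was amplified for 18 to 20 cycles, and no molecular identifiers are named. For fat, the authors deposited per ontology term a p-value, an FDR, counts of annotated and selected genes and an expected number of genes, per the file headers. How those genes were selected is not given in the sources used here, and the fat tables were described, not tested. Histone and input libraries were not analysed here.

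Groups came from the sample titles. Linear models of log2(FPKM + 1) were fitted for each stage in limma 3.58.1 under R 4.3.3 (lmFit, contrasts.fit and eBayes, prior variance trended on mean level), keeping loci that averaged 1 FPKM or more. Fold changes on this scale understate those of low genes. The estimate of 1 locus had failed in a WT library and was left out of 2-cell fits. Fragments were implied from the bounds taken as 2 SD of a Poisson count, which covers counting error only. Named were all 10 members, Fzr1, from each of 4 other lists the members called or else the 2 of highest mean, and the 5 loci most like Slc39a1, Slc39a2 and Slc30a1 with at least 5 FPKM in a group. Mt1, Mt2 and cell type markers are named from fixed lists. Slc30a10, Slc39a9 and the 4 other-metal transporters that did not overlap were named after their values were seen, as were the markers singled out. The members and lists were chosen with earlier results of these data known. Alternatives were other pseudocounts, filters, scalings, variance models, fits of only the libraries compared, a replicate block and leaving out each replicate. The comparison of scalings across stages, the comparison of the Control libraries and the marker sums were added after seeing the data. The fits were tested on simulated data. Python 3.11.15, pandas 2.3.3, numpy 2.4.6 and matplotlib 3.10.9 were also used.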

Additional observations from a re-analysis of the deposited data

How the results depend on the processing

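In blastocysts the number of zinc transporters called, 2 of 8 in the fit described, was 0 with no filter on low values, 0 with no intensity trend, 1 with the replicate block and 1 to 1 on leaving out each replicate in turn. It was 3 with a filter of 5 FPKM, where Slc39a4 joined, and 2 with a pseudocount of 0.1 FPKM, quantile normalization or upper-quartile scaling. Loci called over the whole table went from 397 to 0 with no filter, 41 with no trend, 172 with the replicate block and 87 to 350 on leaving out a replicate; why was not tested. The block left out the Fzr1-OE replicate 3, which has no partner. Correlations between deviations of same-numbered libraries ran from -0.04 to 0.07. With so few libraries they cannot decide whether same-numbered libraries were paired, and the labels do not say. In 2-cell embryos 0 members were called in any setting tried. Of 29 fold changes of members, 6 took the other sign in some setting, none of them called. With a pseudocount of 0.1 FPKM Slc39a7 differed by 3.89 between IVF and WT and by 3.93 between sIVF and WT. Depth limits Slc39a8, with at most 8 implied fragments, Slc30a7 in WT, with at most 2, and Slc39a7 in WT, with at most 22. Groups of 2 or 3 libraries limit every value given.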
